A study of Homo sapiens with 4 samples.

Results

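Promoter sites that were accessible in all 4 ATAC-seq libraries of SKBR3 breast cancer cells are described here by the genes they serve, by their rank and by their DNA sequence. They were chosen by a peak in all 4 peak lists: peaks on chromosomes 1 to 22 and X were merged into sites wherever they overlapped by at least 1 bp, and a site was kept when it held a peak of every list and came within 1000 bp of the start of any transcript of a protein-coding gene in GENCODE release 44. This gave 26365 promoter sites, out of 131751 sites with a peak in all 4 lists and 307691 sites in all. The remaining 105386 sites shared by the 4 lists, farther from any such start, are called distal. Because presence chose the members, presence itself is a description and carries no test.

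ATAC-seq uses the Tn5 transposase to insert sequencing adaptors into open DNA. The SKBR3 line, long in culture, comes from a HER2-positive breast tumour and carries an amplified ERBB2 gene. Cells were starved for 8 h in reduced-serum medium and then either left untreated or given TWEAK, the cytokine ligand of the receptor Fn14, at 10 ng/ml for 48 h with fresh TWEAK after 24 h. Each group had 2 libraries of this single line, so p-values measure only the spread between these libraries.

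A promoter is the stretch of DNA around a transcription start where general transcription factors and RNA polymerase II assemble, and it is usually depleted of nucleosomes in cells that can transcribe the gene. Most promoters of broadly expressed genes lie in CpG islands and carry binding motifs of Sp1, ETS, NRF1 or NFY family factors rather than a TATA box. Promoters of tissue-restricted genes are more often poor in CpG and packed in closed chromatin outside their tissue.

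The sequences of 5 promoters show the kinds of DNA involved. MIEN1, OXSR1 and KAT6B belonged to the highest-ranked members under the rule for named genes, and ALB and RPL24, chosen after their values were seen, had no listed peak at their starts. Each is the RefSeq promoter of the GRCh38.p14 assembly (the build of the peak files, hg38), from 250 bases before to 50 after the gene's start, written 5′ to 3′ on the gene's strand. Capitals mark matches to the 12 motifs searched, on either strand, whose letters are given further on except for NF-kB, which is given by name.
MIEN1, chr17:39730483-39730782, minus strand: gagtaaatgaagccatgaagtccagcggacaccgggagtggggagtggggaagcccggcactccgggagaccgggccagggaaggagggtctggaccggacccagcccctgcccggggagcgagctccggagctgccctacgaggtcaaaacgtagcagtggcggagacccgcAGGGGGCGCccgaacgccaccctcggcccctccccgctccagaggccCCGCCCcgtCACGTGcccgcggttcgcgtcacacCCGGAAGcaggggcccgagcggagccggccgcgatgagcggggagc
OXSR1, chr3:38165287-38165586, plus strand: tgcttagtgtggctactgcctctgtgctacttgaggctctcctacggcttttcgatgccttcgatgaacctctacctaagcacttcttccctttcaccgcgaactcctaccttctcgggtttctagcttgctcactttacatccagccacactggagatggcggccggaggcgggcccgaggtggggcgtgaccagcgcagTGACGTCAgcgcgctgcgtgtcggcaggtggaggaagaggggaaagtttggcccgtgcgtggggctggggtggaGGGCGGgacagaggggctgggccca
KAT6B, chr10:74826350-74826649, plus strand: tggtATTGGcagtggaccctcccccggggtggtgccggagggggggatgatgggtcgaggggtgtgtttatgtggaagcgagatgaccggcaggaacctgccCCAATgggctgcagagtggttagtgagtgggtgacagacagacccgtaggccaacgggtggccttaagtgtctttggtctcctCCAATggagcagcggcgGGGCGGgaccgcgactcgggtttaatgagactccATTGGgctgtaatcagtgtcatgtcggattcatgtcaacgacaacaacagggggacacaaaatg
ALB, chr4:73404037-73404336, plus strand: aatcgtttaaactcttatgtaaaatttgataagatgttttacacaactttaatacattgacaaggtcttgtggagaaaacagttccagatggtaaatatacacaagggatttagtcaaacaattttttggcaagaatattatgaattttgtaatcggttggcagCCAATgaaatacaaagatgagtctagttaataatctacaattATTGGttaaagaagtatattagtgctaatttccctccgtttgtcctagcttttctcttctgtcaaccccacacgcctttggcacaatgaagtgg
RPL24, chr3:101686669-101686968, minus strand: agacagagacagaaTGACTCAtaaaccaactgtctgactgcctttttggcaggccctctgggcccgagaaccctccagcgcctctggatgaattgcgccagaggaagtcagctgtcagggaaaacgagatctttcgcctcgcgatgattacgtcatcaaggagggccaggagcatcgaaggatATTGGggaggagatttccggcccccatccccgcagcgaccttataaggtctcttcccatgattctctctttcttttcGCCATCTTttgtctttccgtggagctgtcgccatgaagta
The GC content was 73% for MIEN1, 62% for OXSR1 and 58.7% for KAT6B, against 33.3% for ALB and 53% for RPL24. MIEN1 held Sp1/KLF, ETS, CTCF and E-box letters, OXSR1 held Sp1/KLF and CREB letters, and KAT6B held 4 NFY matches and 1 Sp1/KLF match. The matches of MIEN1 and KAT6B lay within their high-ranked sites, whereas the OXSR1 site ended upstream of both of its matches. The ALB promoter, of the main plasma protein made by liver, held only 2 NFY matches. RPL24, a ribosomal protein gene, held NFY, YY1 and AP-1 letters.

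Each list held between 195388 and 228734 peaks, all of 1 fixed width just over 500 bp. Each peak carries a value read as the −log10 of an uncorrected p-value from the peak caller. Those values follow a Poisson tail with 1 background pileup per list, which was 3.59 and 2.24 for the untreated and 2.63 and 1.85 for the TWEAK libraries (replicates 1 and 2) and tracks depth. Values are therefore given on a pair of scales. A rank percentile places the best peak of a site within its own list (100 is the top), and a fold over background divides the recovered pileup by that list's background.

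Promoter sites made up 12.4% of the sites found in 1 library, 13.8% of those in 2, 15.4% of those in 3 and 20.01% of those in all 4 (95% Wilson interval 19.8% to 20.2%). Of 49998 sites near a start in any list, 52.7% were in all 4, against 40.9% of 257693 distal sites. At the edge of the rule, the sites at FXYD3 and RAB11FIP1 lay exactly 1000 bp from a start and were kept, with lowest rank percentiles of 74.9 and 23.03 over the 4 libraries. The sites at DDI2 and PIPOX lay 1001 bp away and were not kept, although their lowest percentiles were 87.1 and 79.1. Of the 26365 members, 24092 (91.4%) held a single peak in every library, and the median member was 535 bp wide.

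Of 19970 protein-coding genes, 15168 (76.0%, Wilson interval 75.4% to 76.5%) had a promoter site in all 4 libraries. For 495 genes the best covered site was in 3 libraries, for 414 in 2 and for 558 in 1, and 3335 genes (16.7%) had no listed peak near any start. At the Ensembl canonical start alone, 13978 genes (70.0%) had a site in all 4. A single site served 7781 genes, 4141 genes had 2 sites and 3246 had 3 or more. The most were at MCF2L, with 19 sites, and SEPTIN9, with 17, both genes with many annotated alternative starts. The share of genes with a site was 55.3% on chromosome X and 63.2% on chromosome 21, and on the other chromosomes it lay between 69.6% on chromosome 11 and 81.9% on chromosome 20.

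Housekeeping families were nearly complete. All 37 subunits of respiratory complex I, all 35 tRNA synthetases and all 14 genes of the MCM helicase and origin recognition complex list had a site in all 4 libraries, as did 75 of 77 mitochondrial and 79 of 83 cytosolic ribosomal protein genes, 36 of 39 proteasome genes and 11 of 12 RNA polymerase II subunit genes. The percent over all genes was 76.0. Among those with a site, the gene's lowest rank percentile over the 4 libraries had a median of 97.5 for the MCM and origin list, 95.1 for tRNA synthetases and 94.8 for the proteasome, and of 90.8 to 91.4 for the other 4 lists, against 89.9 for all 15168 genes. CDC6, which loads the MCM helicase onto origins, stood highest in its list with fold values of 384 and 458 in the untreated and 431 and 439 in the TWEAK libraries. CDT1, its partner in loading, stood lowest, with 6.69 and 15.2 in untreated and 9.87 and 10.8 in TWEAK. CDC6 lies on chromosome 17, near ERBB2.

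The exceptions in these families were few. Among them, no peak was listed at the cytosolic ribosomal protein genes RPL24, RPL22L1 and RPL10L, at the proteasome genes PSMB5, PSMB11 and PSMA8, at MRPL23 or at POLR2J. RPL10L, PSMB11 and PSMA8 are paralogues used in testis or thymus. POLR2J shares nearly identical sequence with POLR2J2 and POLR2J3, whose reads can be split between copies or discarded, so its call is uncertain. The peak-free stretch around it measured 241565 bp, and that around PSMB5 and PSMB11 measured 79567 bp. MRPL58 had a site in 3 libraries.

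Zinc finger, histone and HOX genes were set beside the 76.0% of all genes. Of 508 ZNF genes, which mostly encode DNA-binding repressors, 428 (84.3%, Wilson interval 80.8% to 87.2%) had a site, from ZNF687 at a lowest percentile of 99.8 down to ZNF763 at 2.52. Of 69 replication-dependent histone genes, 57 (82.6%, Wilson interval 72.0% to 89.8%, which holds the share of all genes) had one, led by H2AC11 at 99.3. Of the 12 without, H3C13, H3C14, H3C15, H4C14 and H4C15 lie together on chromosome 1, where gene copies are nearly identical and their calls are uncertain. Of 39 HOX genes, the ordered regulators of body axis patterning, 20 (51.3%) had a site, with HOXC13 highest at 92.9.

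Families that serve other tissues mostly lacked one. Only 14 of 415 olfactory receptor genes (3.37%), 4 of 46 defensin genes (8.70%), 3 of 27 taste receptor genes (11.1%) and 26 of 94 keratin-associated protein genes (27.7%) had a promoter site in all 4 libraries, against 76.0% of all genes. For 378 olfactory receptor genes no list had a peak. The site was at the canonical start for 11 of the 14 olfactory receptors and for the 26 keratin-associated protein genes. OR56A3, the highest olfactory receptor at a lowest percentile of 94.98, was an exception with no site there. Keratin-associated protein genes, which form the matrix of hair, had weak sites, with a median lowest percentile of 36.4. KRTAP3-1 was the exception at 97.7, with 4 fold values of 85.6 and 122 in untreated and 129 and 132 in TWEAK. It lies on chromosome 17, as ERBB2 does, and DNA copy number was not separated from accessibility.

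**Figure D1:**
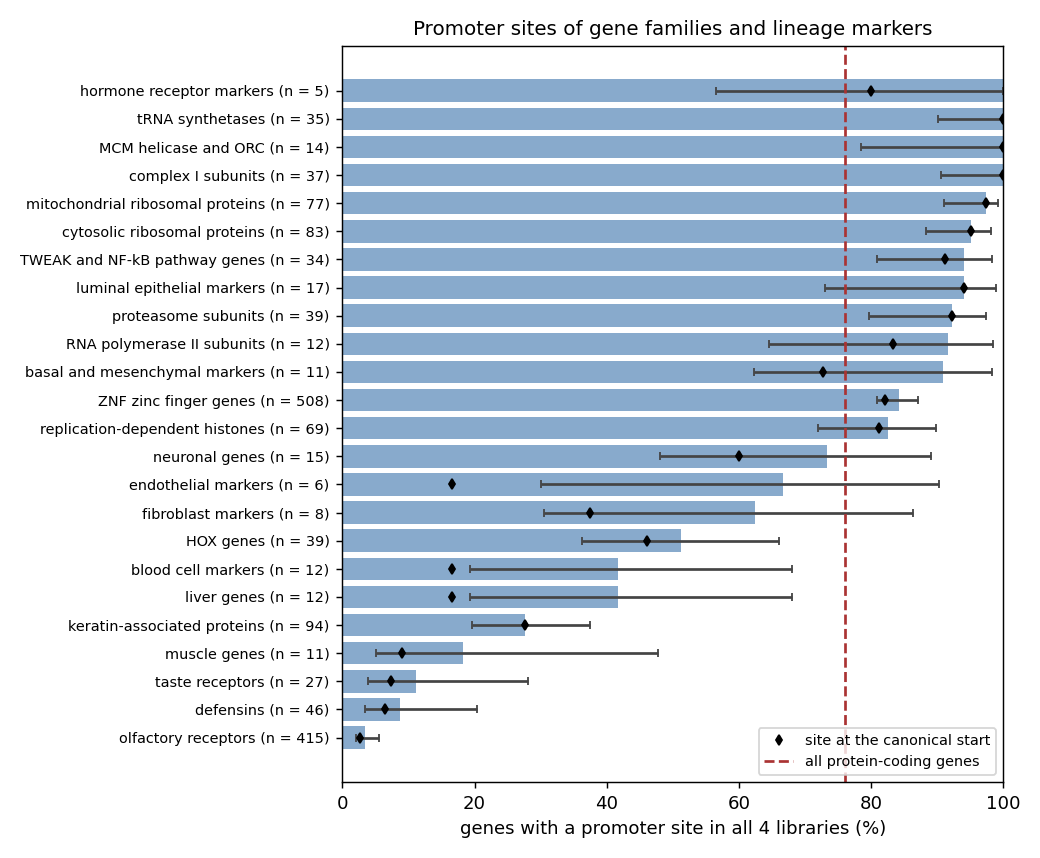
Percent of annotated genes of each list with a promoter site in all 4 libraries (bars, with 95% Wilson intervals), the percent with a site at the canonical start (diamonds) and the percent over all protein-coding genes (dashed line, 76.0%). Housekeeping lists lie at 91.7% or more, and taste receptors, defensins and olfactory receptors lie at 11.1% or less.

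Luminal epithelial markers had mostly high-ranked sites. Of 17 such markers, 16 had a site in all 4 libraries (94.1%, Wilson interval 73.0% to 99.0%, which holds the 76.0% of all genes), each also at the canonical start, against 70.0% of all genes there. Their median lowest percentile was 97.6, against 89.9 for all genes. KRT19, a luminal keratin, ranked at 99.8 in all 4 libraries, ELF3, an epithelial ETS factor, at 99.6 to 99.7, and CLDN4, a tight junction protein, at 99.4 to 99.6. KRT19, CLDN7 and ERBB2 lie on chromosome 17, ESRP1 and GRHL2 on chromosome 8 and TFAP2C on chromosome 20. DNA copy number was not separated from accessibility at these markers. FOXA1 and GATA3, the factors that open luminal enhancers, had lowest percentiles of 98.2 and 90.5 at their best site and of 89.4 and 70.7 at the site nearest the canonical start. The nearest site need not be the highest within 1000 bp of that start. CDH1, which encodes E-cadherin, was the marker without a listed peak, within a peak-free stretch of 252360 bp, and whether the lists used here are complete in such stretches is not known.

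Markers of other cells were listed beside them. All 5 hormone receptor markers had a site, but their median lowest percentile was 51.2, with ESR1 at 43.8 and TFF1 at 27.2. Of 11 basal and mesenchymal markers, 10 had a site, with a median of 57.7, and CDH2 had a peak in 1 library. VIM, the mesenchymal intermediate filament, was highest of these at 88.4, but at the site nearest its canonical start the value was 33.1. Over all starts, 5 of 12 blood cell, 4 of 6 endothelial, 5 of 8 fibroblast, 5 of 12 liver and 2 of 11 muscle genes had a site, against 76.0% of all genes. At canonical starts alone it was 8 of the 11 basal and mesenchymal, 2 of 12 blood cell, 1 of 6 endothelial, 3 of 8 fibroblast, 2 of 12 liver and 1 of 11 muscle genes, against 70.0% of all genes. PTPRC, the pan-leukocyte marker, and SPI1 had a peak in 1 library each, and CD3E and MS4A1 had none. Of 15 neuronal genes, 11 (73.3%) had a site at any start and 9 at the canonical start. SLC17A7, a vesicular glutamate transporter, reached a lowest percentile of 94.8 at its best site and 63.2 at the site nearest its canonical start, whereas NEUROD1 and GAP43 had no listed peak.

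Genes at the top of the ranking came from a few chromosomes. The top 1% of members (264 sites by the lowest of their 4 percentiles) all had percentiles of at least 99.6, and 60 of them were on chromosome 8, 60 on chromosome 17 and 59 on chromosome 7. Chromosomes 8 and 17 together held 45.5% of the top 1% but 11.2% of all members. Chromosome 7 held 22.3% of the top 1% but 6.08% of all members. Their median member was not high: the median fold was 17.3 to 21.7 on chromosome 8, 19.8 to 23.3 on chromosome 17 and 19.8 to 26.0 on chromosome 7, against 23.7 to 29.2 over all members. SKBR3 is known for amplified stretches on chromosomes 8 and 17. DNA copy number and accessibility cannot be told apart in these lists, on any chromosome.

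The highest member was at ERBB2, the receptor gene that defines HER2-positive tumours, at chr17:39703243-39703796 and 49 bp from a transcript start. Its peak came at positions 2 and 1 from the top of the untreated lists and at 2 and 1 of the TWEAK lists. Its fold over background was 923 and 1067 in untreated and 932 and 1039 in TWEAK libraries, so the groups overlapped. ERBB2 had 13 member sites in all, and a further site at chr17:39705725-39706257 came at positions 4, 6, 7 and 7. CACNB1, a calcium channel subunit gene 547 bp from the site, followed at positions 10, 5, 5 and 5.

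Neighbours of ERBB2 and genes of chromosome 8 filled the other places. On chromosome 17, MIEN1 came at positions 11, 13, 15 and 14, with 685-fold and 840-fold in untreated and 689-fold and 761-fold in TWEAK libraries. GRB7, an adaptor of HER2 signalling, came at 14, 17, 17 and 17. On chromosome 8 they were DERL1, a channel for misfolded proteins leaving the endoplasmic reticulum, ZBTB10, NCOA2, a nuclear receptor coactivator, TBC1D31 and NTAQ1, with fold values between 594.6 at TBC1D31 and 853 at NCOA2. The order of these 10 sites moved by at most 10 places between lists.

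Outside chromosomes 8, 17 and 20 the highest members were at OXSR1, DGLUCY, SND1, ACAA1 and KAT6B. OXSR1, a kinase that controls ion transporters, came at positions 78 and 73 in untreated and 61 and 88 in TWEAK libraries, with folds of 349.9 and 434 against 457 and 433. ACAA1, a peroxisomal thiolase on the same stretch of chromosome 3, had folds of 356 and 413 against 376 and 379.6. The DGLUCY site also covered a start of RPS6KA5, and the SND1 site, on chromosome 7, lay 959 bp from the start. KAT6B, a histone acetyltransferase, had folds of 266 and 333 in untreated and 313 and 344 in TWEAK libraries. In 4 of these 5 the groups overlapped in rank, and at ACAA1 the TWEAK positions, 101 and 120, came after the untreated ones, 71 and 82.

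Promoter sites ranked above distal sites of the same lists. The median promoter percentile was 81.1 and 82.2 for untreated and 81.1 and 78.7 for TWEAK libraries, and the distal medians were 64.0, 66.9, 65.4 and 61.0. The difference was 16.5 ± 1.09 percentile points (SD, n = 4 libraries), higher in 4 of 4 libraries, with an exact two-sided sign-flip permutation p of 0.13, the smallest that 4 libraries allow. On the fold scale the promoter medians were 23.7, 27.3, 27.3 and 29.2 and the distal medians 11.4, 13.4, 14.1 and 15.2. Between 29.9% and 34.6% of promoter sites lay in the top 10% of a list, against 10.7% to 12.5% of distal sites.

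**Figure D2:**
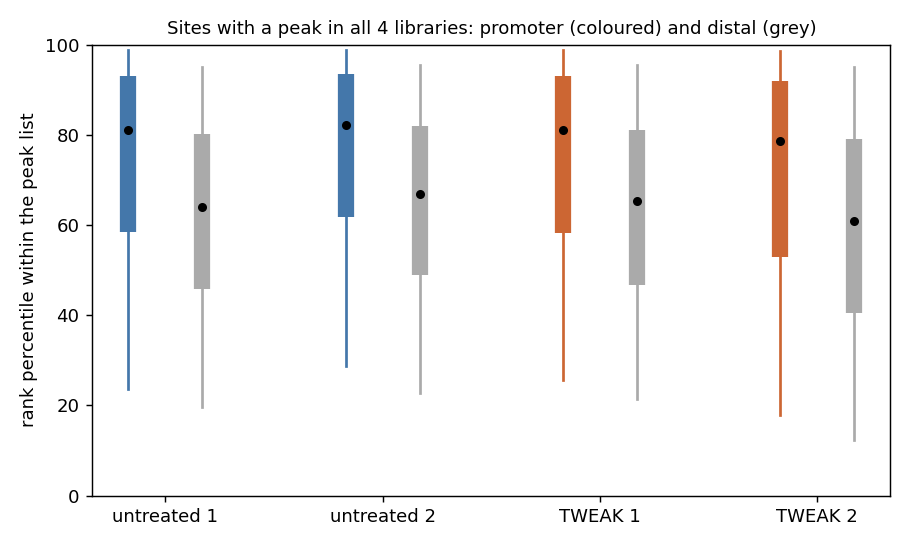
Rank percentile within each library's peak list for promoter sites (coloured, blue untreated and orange TWEAK) and distal sites (grey), all with a peak in all 4 libraries. Points are medians, thick bars the middle 50% and thin bars the 5th to 95th percentile. The promoter median lies between 78.7 and 82.2 and the distal median between 61.0 and 66.9.

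The order of promoters was also steadier between libraries. As a description over 26365 sites that share their libraries and depth, Spearman's rho was 0.982 between the untreated libraries, 0.982 between the TWEAK libraries and 0.964 to 0.970 across groups. Over the 105386 distal sites it was 0.95001, 0.951 and 0.877 to 0.892. The range of a site's percentile over the 4 libraries had a median of 6.36 points at promoter and 12.7 at distal sites. This range went with rank, from 22.1 points in the lowest quartile of promoter sites through 10.1 and 4.26 to 1.27 in the highest quartile. The quartiles were cut by the lowest of the same 4 percentiles, at least 91.2 in the highest quartile. The split thus bounds the range there, and part of this order follows from it. In untreated replicate 1, 114 members tied at the lowest percentile of 2.13, PANK4, ANKRD65, KIAA0232, PCNX3 and NXF1 among them. NXF1, the main mRNA export receptor, was at 2.13 and 9.60 in the untreated libraries and at 55.8 and 57.3 in the TWEAK libraries.

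Sites that served more than 1 gene ranked higher. The 23673 sites near a single gene had median percentiles of 77.0 to 81.0, the 2515 sites near 2 genes 89.7 to 91.6 and the 177 sites near 3 or more 91.4 to 93.9. Of all members, 1908 lay between divergent gene pairs, with medians of 91.2 to 93.0. Every library showed this order.

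At canonical starts the best peak of the nearest member site was centred just upstream. Where a gene had several sites there, taking the nearest favours short distances. Over 13978 genes the median centre lay 67 bp upstream (middle 50% from 144 bp to 17 bp upstream), 80.0% of centres were upstream and 77.8% were within 250 bp of the start. At starts that were not CpG-rich the spread was wider, with 60.7% within 250 bp against 81.0% at CpG-rich starts.

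**Figure D3:**
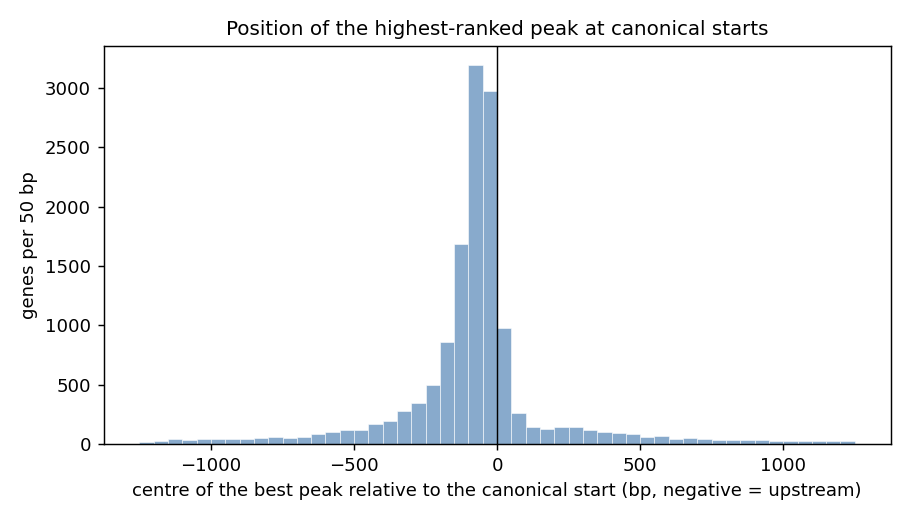
Number of genes per 50 bp by the distance from the canonical start to the centre of the best peak of the nearest promoter site, for 13978 genes with such a site there in all 4 libraries. Negative distances are upstream. The bulk of genes lies within 250 bp and upstream of the start.

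Promoter sites were CpG-rich far more often than distal sites. Over the width of the best peak, 48.3% of promoter sites passed a GC content of 50% and an observed to expected CpG ratio of 0.6, against 2.83% of distal sites. The share followed rank, from 20.6% in the lowest quartile through 36.0% and 61.0% to 75.6% in the highest quartile. CpG-rich promoter sites had median percentiles of 88.3 to 90.6 in the 4 libraries, and the others 64.1 to 70.0. Distal sites of the highest quartile reached only 5.32%.

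The same property separated genes with and without a site. Of 13498 genes whose canonical start was CpG-rich, 90.3% had a promoter site in all 4 libraries and 784 (5.81%) had no listed peak. Of the 6472 other genes, 46.0% had a site and 39.4% had none. CpG-rich starts made up 80.4% of the genes with a site in all 4 libraries, 39.4%, 37.4% and 30.8% of genes with 3, 2 and 1, and 23.5% of those without a peak. Of the 784 CpG-rich genes without a peak, 369 had their 5′ end in a peak-free stretch of at least 50 kb. The 5′ end can differ from the canonical start, as at CELF2, whose canonical start lies outside the stretch. The median stretch over all 784 was 44870.5 bp, against 45158 bp for genes without a peak that were not CpG-rich. Of the 784, 178 shared a stretch with another, in 71 stretches. Among these were the POLR2J and RASA4 copies on chromosome 7 and DGCR6 and PRODH on chromosome 22, where nearly identical copies leave the calls uncertain, and TRIM28, UBE2M, CHMP2A and MZF1 beyond the last listed peak of chromosome 19. A missing peak is a gap in the lists used here, whose completeness at these places is not known, and is not a measurement of closed chromatin.

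Motif letters were searched on both strands in the central 201 bp of the best peak. They were GGGCGG for Sp1/KLF, CCAAT for NFY, CCGGAAG for ETS, GCGCATGC for NRF1, TGACGTCA for CREB, AAGATGGC for YY1, TATAAA for the TATA box, ACTACAA for ZNF143/THAP11, AGGGGGCGC for CTCF, CACGTG for the E-box, TGACTCA or TGAGTCA for AP-1 and a degenerate consensus for NF-kB. No motif's letters contain those of another, although matches can overlap. Sp1/KLF letters were in 42.6% of promoter and 8.16% of distal sites, ETS letters in 8.13% and 1.47%, NRF1 letters in 2.24% and 0.41% and CREB letters in 1.39% and 0.28%. YY1 letters were in 1.92% and 0.98%, CTCF letters in 1.68% and 0.70%, E-box letters in 5.74% and 3.35%, ZNF143/THAP11 letters in 2.23% and 1.73% and NF-kB letters in 8.09% and 5.43%. The order was opposite for AP-1, at 5.77% of promoter and 11.8% of distal sites, and for TATA, at 4.01% and 9.86%. These shares follow base composition as well as binding sites, and the part of each was not tested.

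Some motifs followed the rank of the promoter. From the lowest to the highest quartile, Sp1/KLF letters went from 21.4% through 34.3% and 53.3% to 61.6%, and ETS letters from 2.05% through 4.46% and 11.004% to 15.05%. NFY letters were nearly equal in the full sets, in 25.3% of promoter and 24.2% of distal sites. By quartile they went from 18.9% through 19.8% and 23.3% to 39.3% at promoters, and stayed between 23.8% and 24.6% at distal sites. KAT6B, printed above with its 4 NFY matches, is such a high-ranked promoter. NF-kB letters showed no such order at promoters, at 8.35%, 8.23%, 8.16% and 7.62%.

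**Figure D4:**
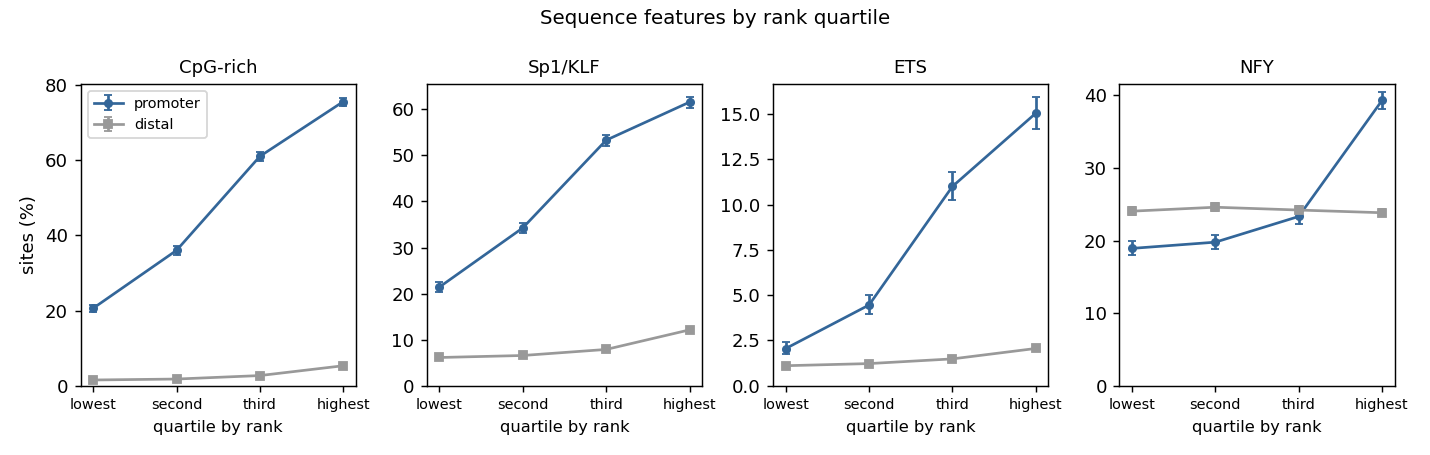
Percent of promoter (blue) and distal (grey) sites that were CpG-rich or held Sp1/KLF, ETS or NFY letters, by quartile of the lowest rank percentile, with 95% Wilson intervals and a separate vertical scale per panel. At promoters CpG-rich sites go from 20.6% to 75.6%, and NFY letters stand out in the highest quartile, at 39.3%.

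In windows from 250 bases before to 50 after every canonical start, Sp1/KLF letters were in 70.8% of the genes with a site in all 4 libraries, in 27.3% of the genes without a peak and in 61.3% of all genes. ETS letters were in 17.2%, 4.59% and 14.1%, and YY1 letters in 4.92%, 1.56% and 4.06%. TATA letters were in 6.33% of the genes with a site, 23.03% of those without a peak and 9.73% of all. NFY letters were in 35.8%, 39.3% and 36.0%.

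To ask whether TWEAK changed promoter accessibility, the libraries were compared as groups. A promoter peak was listed for 15873 and 16141 genes in the untreated and 16046 and 15828 genes in the TWEAK libraries, a difference of 70 fewer genes with TWEAK (exact two-sided permutation p = 0.667). The direction was not stable: it turned to 65.5 more without untreated replicate 2, 34.5 more without TWEAK replicate 2 and 45 more with peaks of a value of at least 5. The median promoter percentile was 81.7 ± 0.83 in untreated and 79.9 ± 1.73 in TWEAK libraries (SD, n = 2 each, exact permutation p = 0.667). The median fold was 25.5 ± 2.54 and 28.3 ± 1.34 (exact permutation p = 0.3333). The exact permutation test of 2 libraries against 2 cannot give a p below 0.3333. The only other test of treatment, a replicate block on median rank and gene number, is given further on. The sign of the difference in medians was opposite on the rank and fold scales.

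Site by site, the direction also depended on the scale. By rank within the list, 2682 members (10.2%) were higher in both TWEAK libraries than in both untreated ones, against 15.8% of all shared sites, and 9595 (36.4%) were lower, against 35.4%. By rank among shared sites, 16.4% of members were higher, against 23.3%, and 28.2% lower, against 28.0%. By fold over background, 28.5% were higher, against 34.8%, and 9.26% lower, against 12.2%. On all 3 scales fewer promoter sites than shared sites in general were higher with TWEAK, whereas the scale decided whether higher or lower members were the more numerous. Single sites were described and not tested.

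The largest differences in rank, given as a description of sites picked for them, kept the groups far apart. CYP27A1, a sterol hydroxylase of bile acid synthesis, was at percentiles 2.13 and 33.5 in the untreated and 89.8 and 87.3 in the TWEAK libraries, and its fold was 2.79 and 5.37 against 45.2 and 44.9. IFNAR2, a type I interferon receptor subunit, was at 30.3 and 3.28 against 86.6 and 88.3, at a site 703 bp from the start. KRT2, a keratin of differentiated epidermis, was at 19.8 and 22.8 against 88.9 and 89.2. PI3, the protease inhibitor elafin, was at 27.2 and 22.8 against 88.8 and 88.5. None of these 4 was among the listed pathway genes. The IFNAR2 site spanned 1009 bp, more than 2 of the fixed-width peaks it joins, so its outermost peaks did not overlap and the ranks compared can come from different positions.

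In the opposite direction stood RNPEPL1, GAPVD1, TRAPPC9, RIIAD1 and FLNA. RNPEPL1 was at 70.9 and 79.2 in the untreated and 11.2 and 27.3 in the TWEAK libraries. As at IFNAR2, the outermost peaks did not overlap at RNPEPL1, a site of 1309 bp, and at RIIAD1, one of 1094 bp. FLNA, an actin crosslinker, was at 54.2 and 51.0 against 11.2 and 7.37. In fold terms FLNA was at 8.36 and 8.05 against 3.80 and 4.33, and TRAPPC9 at 8.08 and 9.84 against 3.42 and 4.87. The untreated folds of FLNA and TRAPPC9 lay below the promoter medians of 23.7 and 27.3.

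**Figure D5:**
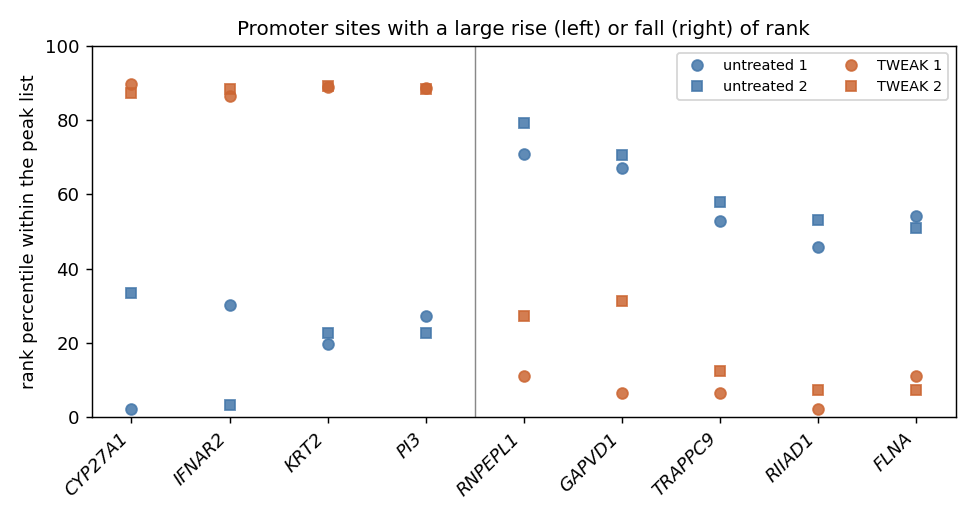
Rank percentile in each of the 4 libraries for 4 members among those with the largest higher rank (left) and the 5 with the largest lower rank (right) in TWEAK against untreated libraries, picked for that difference. Untreated libraries are blue and TWEAK libraries orange. On the left the TWEAK values lie at 86.6 to 89.8 and the untreated values at 33.5 or less.

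TWEAK acts through Fn14, the product of TNFRSF12A, and TRAF adaptors to the canonical and non-canonical NF-kB pathways. Of 34 genes of this list, 32 (94.1%, against 76.0% of all genes) had a promoter site in all 4 libraries, with a median lowest percentile of 91.4 against 89.9 for all genes. TNFRSF12A was not among them. It had a pair of sites, each missing from 1 list: chr16:3020087-3020596 was at percentiles 85.7 and 84.8 in untreated and 82.7 in TWEAK replicate 1, and chr16:3021222-3021766 at 84.2 in untreated replicate 1 and 81.7 and 79.9 in TWEAK. Every list thus had a peak within 1000 bp of an annotated start of the receptor gene. TNFSF12, the gene of TWEAK itself, had a peak in untreated replicate 1 only, at percentile 6.15.

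The TRAF3, NFKB1, NFKB2, NFKBIE, TNFAIP3 and BIRC3 promoters were higher in both TWEAK than in both untreated libraries on all 3 scales. By rank within the list these were the 6 of 32 (18.8%) so ordered, against 8.34% of the best sites of all genes with a site. NFKB1, the precursor of p50, was at 84.9 and 86.2 against 89.9 and 90.5, with folds of 29.3 and 34.4 against 45.6 and 54.7. NFKB2, the precursor of p52 in the non-canonical pathway, was at 90.7 and 89.9 against 93.4 and 93.2, with folds of 42.9 and 44.7 against 59.2 and 66.1. TRAF3, which restrains that pathway, was at 63.3 and 64.0 against 70.0 and 69.2. BIRC3, its partner ubiquitin ligase, was at 97.7 and 97.9 against 98.7 and 98.7. The groups did not overlap at these genes, and single sites were not tested.

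The balance of the list depended on the scale. By rank within the list 9 of the 32 (28.1%) were lower in both TWEAK libraries, against 35.5% of all genes, but by fold RELB alone (3.1%) was lower, against 6.98%. RELB, the partner of p52, was at 92.9 and 90.6 against 90.05 and 87.7. By rank among shared sites 8 of the 32 were higher, against 13.9%, and 5 lower, against 28.0%, and by fold 8 were higher, against 25.4%. NAMPT, the chromosome 7 gene of an enzyme of NAD synthesis, was the highest of the list, at 99.7 and 99.7 against 99.7 and 99.6, and its groups overlapped.

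Marker and family promoters were compared on the same scales. Of the 10 basal and mesenchymal markers with a site, 5 (50%) were higher in both TWEAK libraries by rank within the list, against 8.34% of all genes, and 2 (20%) were lower, against 35.5%. By rank among shared sites 6 (60%) were higher, against 13.9%, and 1 (10%) lower, against 28.0%. By fold 6 (60%) were higher, against 25.4%, and 0 lower, against 6.98%. Other lists also had higher members by rank within the list: 4 of 16 luminal markers (5 lower), 2 of 5 hormone receptor markers (1 lower), 5 of 14 olfactory receptors (2 lower) and 5 of 26 keratin-associated protein genes (15 lower). At its best site KRT5, a basal keratin, was at 75.6 and 72.6 against 84.3 and 84.4, and VIM at 89.1 and 88.4 against 92.2 and 92.0. KRT17, another basal keratin, was at 67.2 and 67.7 against 61.2 and 61.0, and ZEB1, a mesenchymal repressor, at 68.9 and 68.5 against 66.9 and 54.5. Of 57 histone genes with a site, 37 (64.9%) were lower in both TWEAK libraries and 0 higher by rank within the list, beside 35.5% and 8.34% of all genes. By fold 14 (24.6%) were lower and 7 (12.3%) higher, beside 6.98% and 25.4% of all genes. By rank among shared sites 29 (50.9%) were lower and 0 higher, beside 28.0% and 13.9%. The TWEAK lists had backgrounds of 2.63 and 1.85 against 3.59 and 2.24 in the untreated lists, and the part of depth in such shifts was not tested.

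Not every missing member lacked a peak. Of 6040 promoter sites found in 3 libraries, 4492 (74.4%, Wilson interval 73.3% to 75.5%) had a peak of the lacking list within 1000 bp, with a median gap of 362.5 bp. For the 160 such sites with percentiles of at least 90 in all 3 libraries, it was 160 of 160. At MAL2 the site lacked untreated replicate 2 although its other percentiles were at least 99.96, and that list had a peak 461 bp away at 99.97. JUP, the gene of plakoglobin, lacked the same list and had a peak 479 bp away at 99.8. The neighbouring peak was not always as high: at PNMT, with percentiles of at least 99.45 in 3 lists, the peak of TWEAK replicate 2 lay 104 bp away at 71.4, and at PLXDC1, with at least 99.7, that of untreated replicate 1 lay 146 bp away at 97.95. At CSRNP1 and MCM7 the peak of the lacking untreated replicate 1 was 315 bp and 293 bp away. At these sites all 4 lists had a peak close by, but these fixed-width peaks did not all overlap.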

How the data were processed

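ATAC-seq peak lists of 2 untreated and 2 TWEAK-treated SKBR3 libraries were used, grouped by the sample titles. According to the methods and processing notes, the authors trimmed adaptors (Trimmomatic), aligned reads to hg38 (Bowtie2), took out mitochondrial reads (Bamtools) and duplicates (Picard), and called the peaks of each library separately (MACS2). Versions, settings and the step that set every peak to 501 bp are not given in the sources used here. The deposited value of each peak was read, from the values themselves, as the −log10 of a p-value. Every value matched a Poisson upper tail P(X ≥ k) of a whole-number pileup k against 1 background per list within 0.00577, where the smallest step between values was 0.502. The tail convention was chosen for this match. All 55 sequence names of the files were found in the hg38 reference and 0 held a peak past the end.

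Between 73 and 90 peaks per list on other sequences were left out. Sites, ranks and starts are as defined in the report. The members, gene lists, motifs and the rule for named sites were chosen with earlier results of these data known. Named were the 10 highest members and the 5 highest outside chromosomes 8, 17 and 20, the highest, lowest and missing genes of the lists, the 5 largest differences in each direction, and the sites nearest the 1000 bp limit. Some items that this rule names are not reported here. Of the promoters to be printed, those with a RefSeq entry are shown. The motif shares at genes use the hg38 genome at GENCODE canonical starts in place of the planned RefSeq windows. Groups were compared by exact permutation of the library values, two-sided, and shares carry 95% Wilson intervals, which cover counting error only. The DiffBind analysis of the study rests on reads and could not be repeated on peak lists. Replicate numbers were not used to pair the libraries in the main tests. Deviations of same-numbered libraries correlated at −0.02, a single value that cannot show whether they were handled together. The code for sites and pileups was run on simulated data with well separated sites and values made by the same Poisson tail. Joined neighbouring sites and the reading of the deposited value were not tested by it. Python 3.11.15, pandas 2.3.3, numpy 2.4.6, scipy 1.17.1 and statsmodels 0.14.6 were used.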

Additional observations from a re-analysis of the deposited data

How the results depend on the processing

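Promoters ranked above distal sites under every alternative tried, by 16.3 to 24.1 percentile points. With 1 start per gene in place of all transcript starts there were 14832 members at 67.7% of genes (5′ ends) or 15931 at 70.0% (canonical starts). The share of genes was 73.5% within 500 bp, 73.7% with a value of at least 5 and 74.1% with an overlap of at least 250 bp. Members higher in both TWEAK libraries numbered 1215 and lower 5405 for 5′ ends, and 1289 and 5772 for canonical starts. They numbered 4327 higher by rank among shared sites, and 7508 higher and 2442 lower by fold over background. The difference in genes with a promoter peak, TWEAK minus untreated, turned to 45 with a value of at least 5. Leaving out 1 library gave −202 to 65.5 for that difference, and it turned positive without untreated replicate 2 (65.5) or TWEAK replicate 2 (34.5). Leaving out 1 library also gave 76.3% to 76.9% of genes, 4084 to 7434 higher members and 12242 to 17108 lower ones, since fewer libraries must then be ordered. For the difference in median promoter percentile, leaving out 1 library gave −3.33 to −0.997, and a value of at least 5 gave −0.927. With 1 library left in a group, neither that difference nor the one in genes has a spread of its own. With a replicate block, the difference in median rank stayed −1.74 and that in genes −70 (exact sign-flip permutation p = 1 for both), although it is not known whether the numbers pair the libraries.

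Canonical starts, the rank among shared sites and the fold scale were chosen after seeing the data. Without chromosomes 8, 17 and 20 (chromosome 7 was kept), or with the median peak of a site, results kept their direction and counts stayed within 1.5 times. Depth limits the weakest members: up to 212 promoter sites of a list lay at its lowest deposited value, and a peak below that value would not be listed.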
